A study of Mus musculus with 6 samples.

Results

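Amino acids and small peptides cross the membranes of skin cells through carriers of the solute carrier (SLC) superfamily, and the genes of 8 families of these carriers (Slc1, Slc3, Slc6, Slc7, Slc15, Slc36, Slc38 and Slc43) were compared between UVB-irradiated Cbl-b-/- and WT skin. A gene was included when its symbol placed it in one of these families and when the array table held a row with that symbol alone. The peptide carrier gene Slc15a2 was left out by the rule. This gave 68 genes of the 19938 that have a row of their own. For Slc38a1 and Slc38a9, which have 2 rows each, the row with the higher mean was used. Slc6a19os and Slc7a6os carry family symbols but are genes on the strand opposite a carrier, so 66 of the 68 encode carriers or their subunits.

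The mice were Cbl-b-/- animals, which lack the E3 ubiquitin ligase Cbl-b in every cell, and WT controls, on a BL6 background and matched for sex and age. The age was not given in the sources used here. All were shaved and received UVB once, at 80 mJ/cm2, and RNA of whole dorsal skin was taken 24 h later, with 1 mouse per array and 3 arrays per genotype. Both groups were irradiated, so the comparison is between genotypes after UVB, and unirradiated skin was not analysed here.

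SLC carriers differ in what drives them and in where they sit. The Slc1 and Slc6 carriers use the sodium gradient to concentrate glutamate, neutral amino acids, neurotransmitters, taurine or creatine. Most Slc7 carriers are exchangers that work only when bound to a heavy chain of the Slc3 family, while the cationic carriers of Slc7 bring in arginine, lysine and ornithine without one. Slc38 carriers move glutamine and other small neutral amino acids, and Slc43 carriers move large neutral amino acids. Most Slc15 and Slc36 carriers move peptides or small amino acids together with protons. In skin, arginine feeds nitric oxide and polyamine synthesis, cystine feeds glutathione, and several of these genes are induced by the transcription factor Atf4 when amino acids run short.

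Values are log2 expression after robust multichip average normalization, 1 per array and transcript cluster (the array's unit for a gene), so a difference of 1 stands for a 2-fold difference in signal. The array medians over all 35556 transcript clusters lay between 6.30 and 6.34, and correlations between arrays ran from 0.980 to 0.993 across transcript clusters. Cblb, the targeted gene, stood at 8.61, 8.69 and 8.61 in Cbl-b-/- skin and at 9.90, 9.66 and 9.72 in WT skin, which is a log2 fold change of -1.12 (SE 0.092, adjusted p = 0.0782 by limma), so its level followed the labels. The keratinocyte marker genes had medians of 11.45 to 11.76 in Cbl-b-/- and 11.03 to 11.68 in WT skin. WT replicate 3 stood apart in the hair follicle markers, with a median of 9.02 against 5.45 and 5.64 in the other WT arrays and 5.66 to 6.98 in Cbl-b-/- arrays, and Cbl-b-/- replicate 2 in the neutrophil markers, with 9.41 against 7.12 and 6.83 in the other Cbl-b-/- arrays and 7.70 to 8.37 in WT arrays. The table has no detection calls, and its values have no true zero. A level of 5.35, the upper end (95th percentile) of 1240 smell and taste receptor rows, was therefore used to tell low rows apart, and 50 transporter genes lay above it while 18 lay at or below it.

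Of the 68 transporter genes, 1 met the study's thresholds (an unadjusted p under 0.05 and at least a 1.5-fold difference) and 0 were higher at them. The gene was Slc7a2, a carrier of arginine and other cationic amino acids, which was lower in Cbl-b-/- skin. It made up 1.47% of the set, beside 1.22% of all transcript clusters that met the same thresholds in limma (0.945% lower and 0.276% higher), and beside 0.496% of those with a single gene symbol. At an unadjusted p under 0.05 alone, 2 of the 68 passed by limma, Slc7a2 lower and Slc1a6 higher, which is 2.94% of the set against 6.55% of all transcript clusters (2.87% lower and 3.68% higher). By the methods' one-way test 3 passed, with Slc1a2 (higher) beside these, which is 4.41% against 6.98%. The limma count ran from 2 to 5 when single arrays were left out. It was 5 without Cbl-b-/- replicate 2, 4 without WT replicate 2 and 3 without Cbl-b-/- replicate 1 or WT replicate 3. The share of all transcript clusters at this p was not counted in these fits. Without Cbl-b-/- replicate 2, all transcript clusters at the study's thresholds rose as well, from 434 to 790. After Benjamini-Hochberg adjustment over all transcript clusters by limma, 0 of the 68 passed and the smallest adjusted p was 0.308, where 0.00281% of all transcript clusters passed.

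The fold changes of the set were small. The median log2 fold change was 0.048, against 0.020 over all transcript clusters, and the values ran from -0.63 for Slc7a2 to 0.42 for Slc6a4, the serotonin carrier. For 52 of the 68 genes the whole 95% interval of the difference lay within 1.5-fold in either direction, and for 16 it did not. Slc7a2 is among these 16, and for all the others of them the interval held both no difference and a difference of 1.5-fold, so with 3 arrays per genotype these could not be told apart. A log2 fold change above 0 was found for 45 genes and below 0 for 23, so that 66.2% stood above 0, against 55.8% of all transcript clusters and 58.4% of those with a single gene symbol. With cyclic loess between arrays these counts were 40 and 28. Among the 18 genes at or below the low level 17 stood above 0 (94.4%, against 60.4% of all transcript clusters at or below it), and among the 50 others 28 did (56.0%, against 53.4% of all above it). In skin, which holds many cell types, fewer cells of a type and less RNA per cell cannot be told apart.

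**Figure D1:**
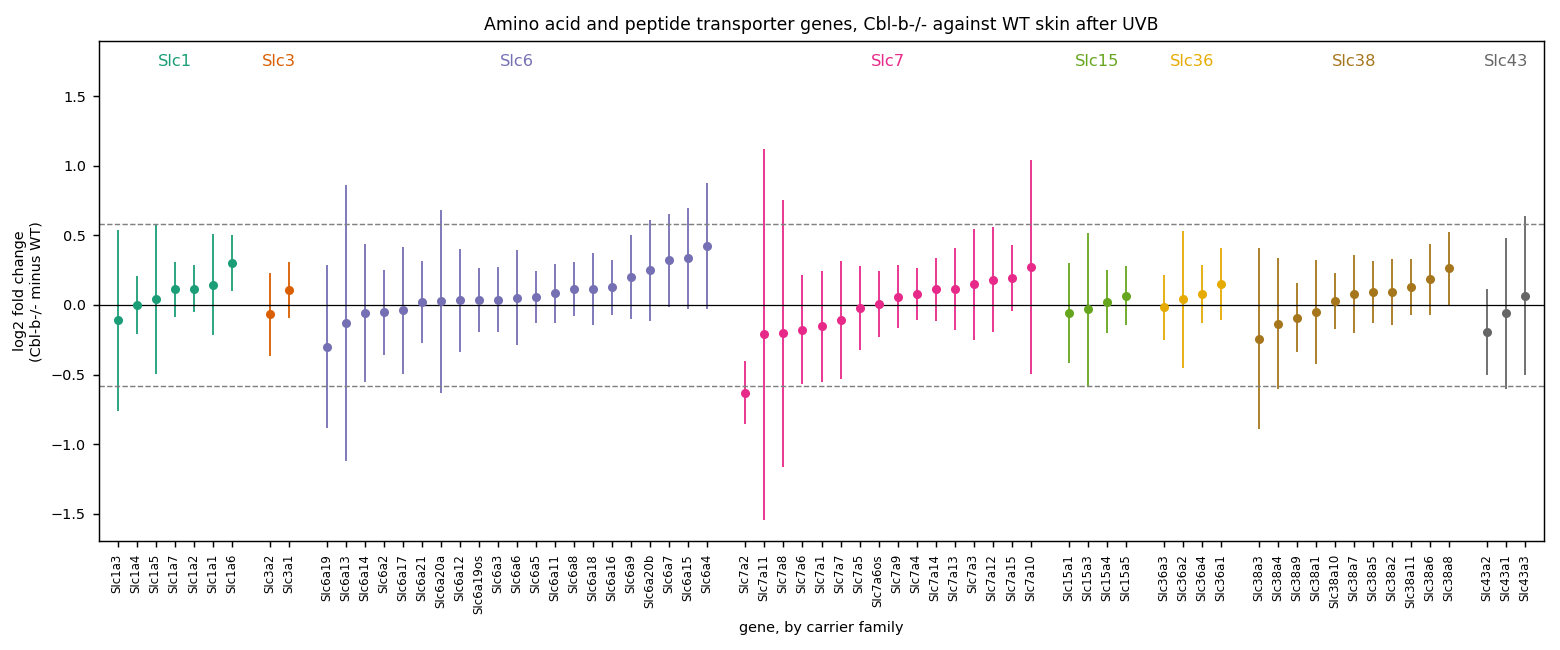
Log2 fold change (Cbl-b-/- minus WT) of each of the 68 transporter genes by family, with points for the estimate and vertical lines for the 95% interval from limma; dashed lines mark a 1.5-fold difference. Slc7a2, at -0.63, is the only gene whose estimate lies beyond a dashed line, and the longest intervals belong to Slc7a11, Slc6a13 and Slc7a8.

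The groups did not overlap for 8 genes, which is 11.8% of the set against 13.5% of all transcript clusters (4.89% lower and 8.66% higher). Slc7a2 was the 1 gene that lay lower in every Cbl-b-/- array. The 7 that lay higher in every Cbl-b-/- array were Slc1a2, Slc1a6, Slc6a4, Slc6a16, Slc7a4, Slc7a15 and Slc38a8, with log2 fold changes from 0.078 for Slc7a4 to 0.42 for Slc6a4. Of these 7, Slc1a6 passed an unadjusted p under 0.05 by limma, and Slc1a6 and Slc1a2 did so by the methods' test.

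Slc7a2 encodes CAT2, a cationic carrier whose splice forms differ in their affinity for arginine and which in mice supplies arginine to macrophages once they are activated. It read 7.34, 7.27 and 7.24 in Cbl-b-/- arrays and 7.90, 8.05 and 7.79 in WT arrays. The highest Cbl-b-/- array thus lay below the lowest WT array, and the arrays of each genotype lay close together. The means were 7.29 ± 0.055 in Cbl-b-/- and 7.92 ± 0.13 in WT skin (SD, n = 3 each), so that Slc7a2 was 1.55-fold lower in Cbl-b-/- skin. The log2 fold change was -0.63 (SE 0.093, 95% interval -0.85 to -0.41, adjusted p = 0.308 by limma), and a two-sided exact permutation test gave p = 0.1, the smallest that 3 against 3 arrays allow. Without WT replicate 2, the highest array, it was -0.56 and no longer reached 1.5-fold. Slc7a2 is among the genes the study itself picked from these samples, so its direction here is not independent evidence. A single row covers the gene, and its splice forms cannot be told apart.

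The other cationic carriers were measured beside it. Slc7a1 (CAT1), the carrier that most cells use for arginine, read 8.45, 8.51 and 8.04 in Cbl-b-/- and 8.24, 8.58 and 8.64 in WT skin, with overlapping groups and a log2 fold change of -0.15 (SE 0.17). Slc7a3 (CAT3), known mainly from brain, read 4.92, 5.19 and 4.64 in Cbl-b-/- and 4.58, 4.80 and 4.94 in WT skin, all below the low level, with a log2 fold change of 0.15. Neither passed the test, and their 95% intervals, from -0.55 to 0.25 for Slc7a1 and from -0.25 to 0.54 for Slc7a3, did not reach 1.5-fold in either direction. Slc7a4, a related gene without a known substrate, is the only gene of the set on chromosome 16, where Cblb lies, and its log2 fold change was 0.078 (SE 0.077). Slc7a14, a lysosomal relative, stood at 0.11.

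The macrophage markers did not separate the genotypes, with medians of 8.81, 9.10 and 9.27 in Cbl-b-/- arrays and 9.52, 8.88 and 8.64 in WT arrays, 6 of the 10 markers below 0, and 0 at the thresholds. The markers of skeletal muscle, which in mice expresses Slc7a2, had medians of 10.81, 9.71 and 10.66 in Cbl-b-/- and 11.08, 10.92 and 10.16 in WT skin. Of the 8 muscle markers 7 stood below 0 and 1 above (12.5% above, against 55.8% of all transcript clusters). Their median log2 fold change was -0.25, with 0 at the thresholds. All 8 were lowest in Cbl-b-/- replicate 2, where Slc7a2 read 7.27, between the other Cbl-b-/- arrays. The part of these cells in the Slc7a2 result was not tested.

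**Figure D2:**
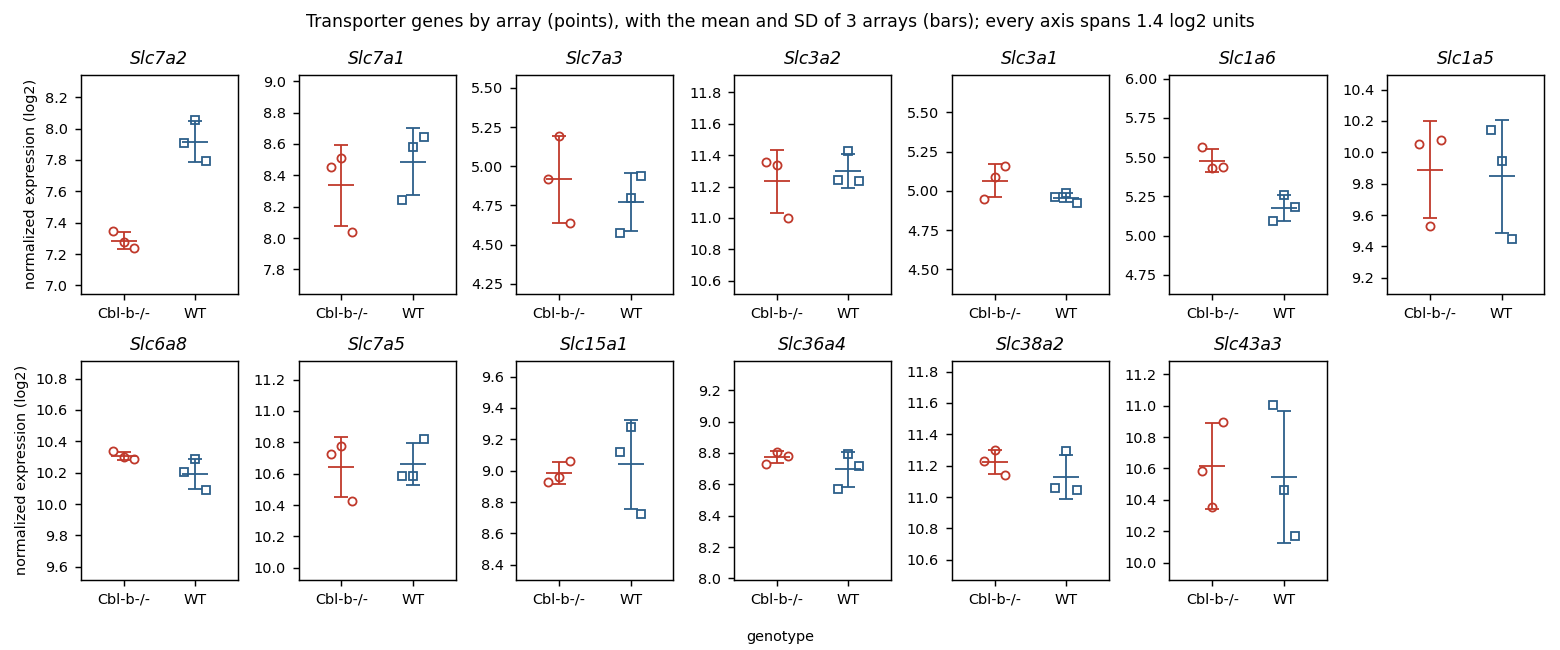
Normalized log2 expression of Slc7a2, Slc7a1, Slc7a3, the heavy chains Slc3a2 and Slc3a1, Slc1a6 and the highest-reading gene of each family, with Cbl-b-/- (circles) left of WT (squares) and bars for the mean and SD of 3 arrays. Only Slc7a2 and Slc1a6 show groups that do not overlap, and levels of different genes are not comparable between panels.

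The heavy chains carry the exchangers of the Slc7 family to the cell surface. Slc3a2 (4F2hc, also CD98) read 11.36, 11.34 and 11.00 in Cbl-b-/- and 11.24, 11.43 and 11.23 in WT skin. The groups overlapped, Cbl-b-/- replicate 3 was the lowest array, and the log2 fold change was -0.068 (SE 0.12). Slc3a1 (rBAT), the heavy chain of kidney and gut, read 4.95, 5.09 and 5.16 in Cbl-b-/- and 4.96, 4.99 and 4.93 in WT skin, below the low level in every array. Its partner Slc7a9 was low as well, with 4.71 to 4.77 in Cbl-b-/- and 4.52 to 4.80 in WT skin.

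The light chains that pair with Slc3a2 did not pass the test. Slc7a5 (LAT1), which imports leucine and other large neutral amino acids, read 10.72, 10.78 and 10.42 in Cbl-b-/- and 10.59, 10.58 and 10.82 in WT skin, with a log2 fold change of -0.020 (SE 0.13, 95% interval -0.32 to 0.28). Slc7a6 (y+LAT2) and Slc7a7 (y+LAT1), which exchange cationic for neutral amino acids, stood at -0.18 (SE 0.16) and -0.11 (SE 0.18). Slc7a8 (LAT2), Slc7a10 (Asc-1, which carries small neutral amino acids) and Slc7a11 (xCT, which brings in cystine in exchange for glutamate) spread over more than 1 log2 unit between arrays. Their log2 fold changes were -0.20 (SE 0.40), 0.27 (SE 0.32) and -0.21 (SE 0.56). The kidney genes Slc7a12 and Slc7a13 stayed between 2.87 and 4.15 in every array.

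Slc7a11 was the most variable gene of the set. It read 8.42, 8.94 and 6.68 in Cbl-b-/- skin and 7.89, 8.43 and 8.35 in WT skin, so that both its highest and its lowest array were Cbl-b-/- arrays and spanned 2.26 log2 units. Without Cbl-b-/- replicate 3 the log2 fold change turned to 0.46. The median of the neutrophil markers was highest in Cbl-b-/- replicate 2 and lowest in Cbl-b-/- replicate 3 as well. The arrays between did not follow the same order. Cbl-b-/- replicate 1 had a marker median of 7.12 with Slc7a11 at 8.42, and WT replicate 1 had 8.37 with Slc7a11 at 7.89. The part of neutrophils in the Slc7a11 values was not tested.

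The promoters of these genes were read for the element through which Atf4 and its C/EBP partners act during amino acid shortage. RefSeq windows on build GRCm38.p6, from 250 bases before to 50 bases after a transcript start, were held for 50 of the 68 genes (71 windows), and the motif TGATGNAA was searched on both strands, with no other motif searched. Slc7a2 is among the 18 genes without a window and was not searched. The motif occurred in 6 of the 71 windows (8.45%), against 3.97% of all 32851 windows, and belonged to Slc7a11, Slc7a7, Slc1a4, Slc6a21 and Slc15a5. The Slc7a7 windows with a match overlap and share a match, which was therefore counted more than once. By gene, 5 of the 50 genes held a match, against 1219 of 27025 genes with a window. More than 1 match was found in 2 windows (2.82% of the 71, against 0.070% of all), 1 of Slc7a11 and 1 of Slc7a7. A match describes letters in a window and is not a shown binding site. The sequences are given 5′ to 3′ on the strand of the gene, with capitals for the motif on either strand. The whole window is shown for Slc7a11, whose matches lie on opposite strands and begin 66 and 47 bases before the start, and stretches of 60 bases for Slc7a7 and Slc1a4, which like Slc7a11 read above the low level.
Slc7a11, chr3:50443564-50443863, minus strand: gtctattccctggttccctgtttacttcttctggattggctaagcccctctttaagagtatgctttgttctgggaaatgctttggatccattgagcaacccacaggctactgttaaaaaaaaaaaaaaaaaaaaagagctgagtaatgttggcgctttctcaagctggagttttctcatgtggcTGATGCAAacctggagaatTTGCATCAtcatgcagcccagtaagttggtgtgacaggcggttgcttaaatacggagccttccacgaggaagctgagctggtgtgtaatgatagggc
Slc7a7, chr14:54417912-54417971, minus strand: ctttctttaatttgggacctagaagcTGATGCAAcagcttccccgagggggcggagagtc
Slc7a7, chr14:54418052-54418111, minus strand: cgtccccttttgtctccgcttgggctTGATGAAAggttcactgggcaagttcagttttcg
Slc1a4, chr11:20332684-20332743, minus strand: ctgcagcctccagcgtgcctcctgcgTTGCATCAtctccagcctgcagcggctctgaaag

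The 5 genes with the motif had fold changes on either side of 0. The log2 fold change was -0.21 for Slc7a11, -0.11 for Slc7a7, 0.068 for Slc15a5, 0.019 for Slc6a21 and 0.00074 for Slc1a4, and none passed the test. Slc1a4 (ASCT1), whose match begins 4 bases before its start and runs over it, read 6.57, 6.52 and 6.60 in Cbl-b-/- and 6.46, 6.54 and 6.69 in WT skin. Its arrays thus differed little in either genotype. Slc7a7 read 7.09, 7.40 and 7.13 in Cbl-b-/- and 7.64, 7.29 and 7.01 in WT skin.

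The Slc1 family takes up glutamate and small neutral amino acids. Above 0 stood 6 of its 7 genes (85.7%, against 55.8% of all transcript clusters), with a median log2 fold change of 0.11. Slc1a4 is among the 6 at 0.00074 (SE 0.087), and its sign changed under 5 alternatives. Slc1a5 (ASCT2), the sodium-coupled glutamine carrier and the highest-reading gene of the family, read 10.05, 9.53 and 10.08 in Cbl-b-/- and 10.14, 9.95 and 9.45 in WT skin. In each genotype 1 array lay low, and the log2 fold change was 0.043 (SE 0.22). Slc1a6 (EAAT4), a glutamate carrier of the cerebellum, read 5.56, 5.43 and 5.44 in Cbl-b-/- and 5.09, 5.26 and 5.18 in WT skin. The WT arrays lay below the low level of 5.35 and the Cbl-b-/- arrays just above it, and the mean of all arrays was below it. The log2 fold change was 0.30 (SE 0.085, unadjusted p = 0.0106 and adjusted p = 0.700 by limma), which is under 1.5-fold, and the exact permutation test gave p = 0.1.

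Among the other glutamate carriers, Slc1a2 (GLT-1) stood at 0.12 (SE 0.070) and Slc1a1 (EAAC1), the glutamate and cysteine carrier of many epithelia, at 0.15 (SE 0.15). Slc1a3 (GLAST) read 7.86, 6.77 and 7.31 in Cbl-b-/- and 7.63, 7.44 and 7.20 in WT skin. Cbl-b-/- replicate 2 was its lowest array, and the log2 fold change of -0.11 turned to 0.16 without that array.

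The Slc6 family was the largest, with 21 genes, of which 16 stood above 0 (76.2%, against 55.8% of all transcript clusters) and 0 met the thresholds. Its median log2 fold change was 0.054. Many of its members carry substances other than amino acids of proteins, among them creatine (Slc6a8), taurine (Slc6a6), serotonin (Slc6a4), noradrenaline (Slc6a2) and dopamine (Slc6a3). Slc6a8, the highest-reading gene, read 10.34, 10.30 and 10.29 in Cbl-b-/- and 10.20, 10.29 and 10.09 in WT skin, with a log2 fold change of 0.11 (SE 0.082). Slc6a6 stood at 0.053 (SE 0.14), Slc6a2 at -0.053 and Slc6a3 at 0.038.

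Slc6a4 had the highest fold change of the set without passing the test. It read 6.89, 6.97 and 7.47 in Cbl-b-/- and 6.89, 6.74 and 6.44 in WT skin. The groups did not overlap but nearly touched, and Cbl-b-/- replicate 3 and WT replicate 3 lay at the ends. The log2 fold change was 0.42 (SE 0.19, 95% interval -0.032 to 0.88, unadjusted p = 0.0638 by limma). Mast cells, which in mice hold serotonin, were read by 6 markers, of which 5 stood above 0 (83.3%, against 55.8% of all transcript clusters). At an unadjusted p under 0.05 by limma 2 of them passed, Mcpt4 (0.50) and Cma1 (0.51), and 0 met the adjusted threshold. This is 33.3% of the 6 markers, against 6.55% of all transcript clusters. Kit, the marker below 0, stood at -0.27 (SE 0.22). The medians of the mast cell markers were 7.21, 7.56 and 7.14 in Cbl-b-/- and 7.37, 7.27 and 7.55 in WT skin, and their part in the Slc6a4 values was not tested.

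The glycine, proline and broad carriers of the family gave values on either side of 0. Slc6a9 (GlyT1) stood at 0.20 (SE 0.12), Slc6a7, the proline carrier of brain, at 0.32 (SE 0.14) and Slc6a15, a carrier of branched-chain amino acids and proline, at 0.33 (SE 0.15) with readings of 4.04 to 4.70 that all lay below the low level. Slc6a14, which takes up neutral and cationic amino acids in epithelia, read 8.68, 9.18 and 8.80 in Cbl-b-/- and 8.84, 9.33 and 8.67 in WT skin, with overlapping groups and a log2 fold change of -0.057 (SE 0.21). Slc6a20a, a proline carrier, read 8.61, 9.53 and 8.52 in Cbl-b-/- and 8.81, 9.06 and 8.70 in WT skin, so that Cbl-b-/- replicate 2 lay above all others. Its close copy Slc6a20b stood at 0.25 (SE 0.15) and was also highest in that array. The rows of these near-identical neighbours may share signal.

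The Slc38 family moves glutamine, alanine and serine. Above 0 stood 7 of its 11 genes (63.6%, against 55.8% of all transcript clusters), with a median of 0.080. Slc38a2 (SNAT2), which cells raise when amino acids are scarce, read 11.23, 11.30 and 11.14 in Cbl-b-/- and 11.06, 11.29 and 11.04 in WT skin. The groups overlapped, and the log2 fold change of 0.093 (SE 0.10) had a 95% interval of -0.15 to 0.33. Slc38a1 (SNAT1), its neighbour on chromosome 15, stood at -0.049 (SE 0.16) and its second row at -0.23 (SE 0.11). Slc38a9, the lysosomal carrier that reports arginine to mTORC1, stood at -0.092 (SE 0.10) and its second row at 0.099 (SE 0.10), so the rows of this gene differed in sign and neither passed the test. Slc38a8 read 5.61, 5.49 and 5.59 in Cbl-b-/- and 5.09, 5.43 and 5.37 in WT skin, with a log2 fold change of 0.26 (SE 0.11, unadjusted p = 0.0509 by limma).

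The Slc36 carriers and the Slc43 carriers gave 0 genes at the thresholds. Slc36a4 read 8.73, 8.81 and 8.78 in Cbl-b-/- and 8.57, 8.80 and 8.72 in WT skin, with a log2 fold change of 0.078 (SE 0.087). Slc36a1 (PAT1), which sits on lysosomes as well as at the surface, stood at 0.15 (SE 0.11). Slc43a3, a carrier of purine bases in spite of its family, read 10.59, 10.35 and 10.90 in Cbl-b-/- and 11.00, 10.46 and 10.17 in WT skin. Its WT arrays spread more widely than its Cbl-b-/- arrays, and the log2 fold change was 0.068 (SE 0.24). Slc43a1 (LAT3) and Slc43a2 (LAT4), carriers of branched-chain amino acids, stood at -0.061 (SE 0.23) and -0.19 (SE 0.13). All 3 Slc43 genes were highest in WT replicate 1.

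The peptide carriers of the Slc15 family that were included did not pass the test, with a median log2 fold change of -0.0039. Slc15a1 (PEPT1), best known from gut, read 8.93, 8.96 and 9.06 in Cbl-b-/- and 9.12, 9.28 and 8.73 in WT skin. The Cbl-b-/- arrays all fell inside the WT range, and the log2 fold change was -0.058 (SE 0.15). Slc15a3 and Slc15a4, which move bacterial peptides and histidine out of endolysosomes in immune cells, stood at -0.032 (SE 0.23) and 0.024 (SE 0.095). Slc15a3 read 7.93, 8.40 and 7.45 in Cbl-b-/- and 8.08, 7.86 and 7.93 in WT skin, with Cbl-b-/- replicates 2 and 3 at its ends.

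**Figure D3:**
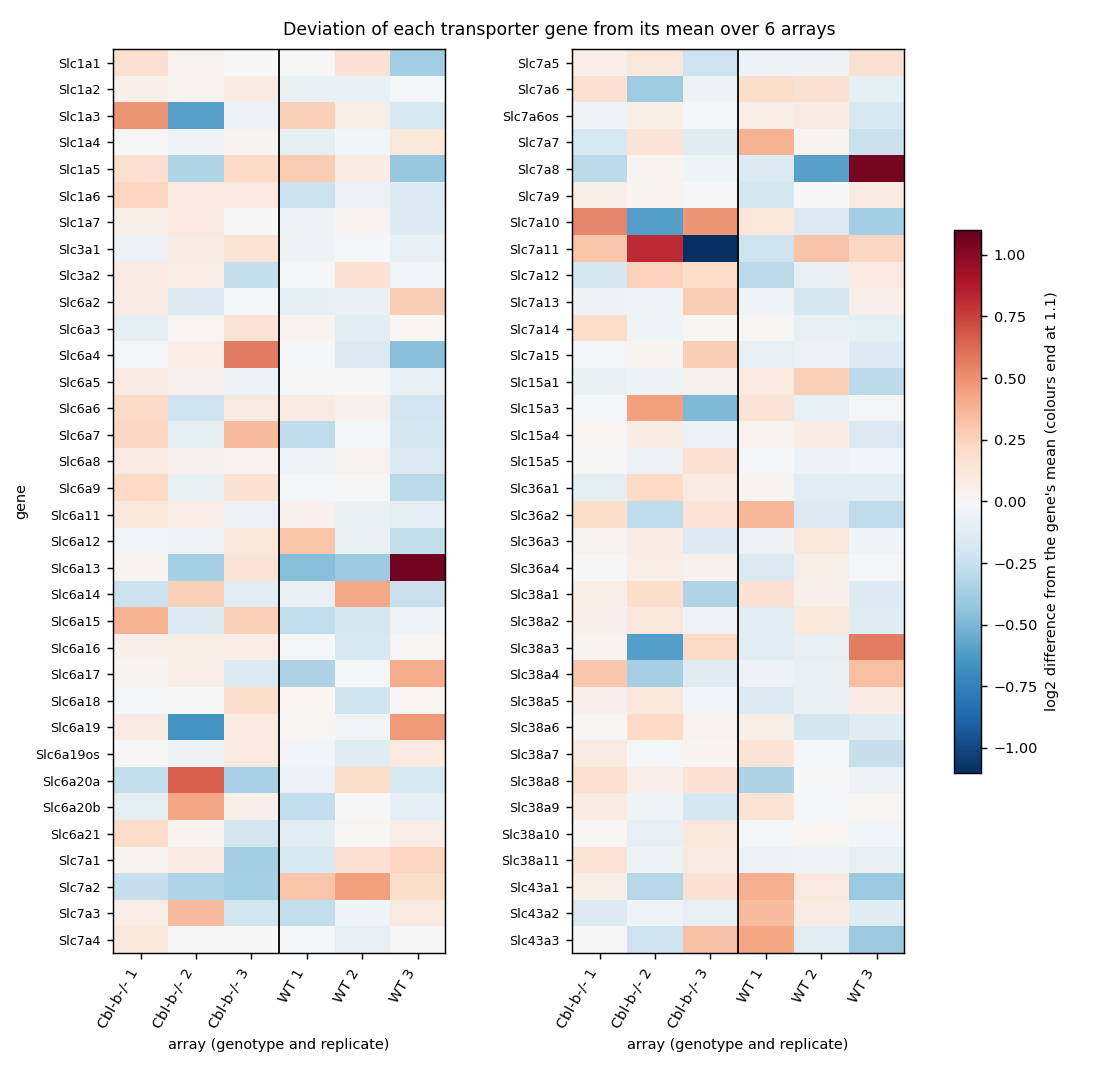
Difference of each of the 68 transporter genes (rows) from its own mean over the 6 arrays, in log2 units, with the Cbl-b-/- arrays left of the line and the WT arrays right of it; red is above and blue below the mean, and colours end at 1.1. Slc7a2 is blue in all Cbl-b-/- arrays and red in all WT arrays, while the darkest cells (Slc7a11, Slc7a8 and Slc6a13) belong to single arrays.

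For 9 genes the arrays spanned more than 1 log2 unit. Slc7a8, the LAT2 light chain, read 8.24, 8.56 and 8.48 in Cbl-b-/- and 8.38, 7.93 and 9.58 in WT skin. Slc6a13, a carrier of GABA and taurine, read 5.95, 5.55 and 6.05 in Cbl-b-/- and 5.45, 5.51 and 6.97 in WT skin. WT replicate 3 was far above every other array in both genes. It was also the highest array for Slc38a3 (SN1), a glutamine carrier, at 7.49, and for Slc6a19 (B0AT1), a neutral amino acid carrier, at 6.85.

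The hair follicle markers were highest in the same array, 16 of 17 of them, and so were all 7 melanocyte markers, with a median of 8.22 in WT replicate 3 and 6.08 to 6.72 in the Cbl-b-/- arrays. Without WT replicate 3 the log2 fold changes of Slc7a8 and Slc6a13 turned to 0.27 and 0.37, and neither passed the test with or without it. The part of hair follicle cells in these values was not tested.

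Slc7a10 and Slc1a3 were lowest in Cbl-b-/- replicate 2. Slc7a10, which in mice is a surface marker of white fat cells, read 7.99, 6.85 and 7.94 in Cbl-b-/- and 7.58, 7.30 and 7.09 in WT skin. The other Cbl-b-/- arrays lay above all WT arrays. The adipocyte markers had medians of 8.96, 7.65 and 9.01 in Cbl-b-/- and 8.87, 8.40 and 7.85 in WT skin, and 7 of 7 had a log2 fold change above 0, with 0 at the thresholds. Without Cbl-b-/- replicate 2 the log2 fold change of Slc7a10 was 0.64 (unadjusted p = 0.00768 by limma), which met the study's thresholds. In that fit 790 of all transcript clusters met them, against 434 with all arrays. The part of fat cells in these values was not tested.

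**Figure D4:**
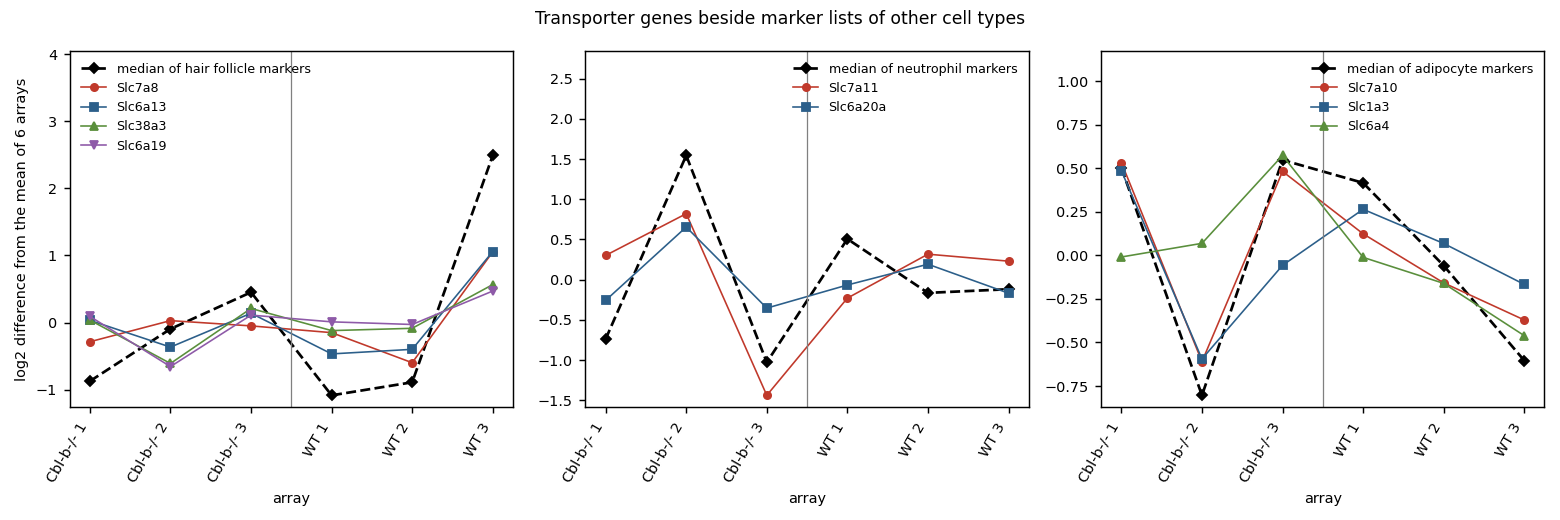
Difference from the mean of the 6 arrays, in log2 units, for the 9 transporter genes that spanned more than 1 log2 unit (colours) and for the median of a marker list (black dashes), with Cbl-b-/- arrays left of the line. Slc7a8 and Slc6a13 peak with the hair follicle markers in WT replicate 3, Slc7a11 and Slc6a20a are highest with the neutrophil markers in Cbl-b-/- replicate 2, and Slc7a10 is lowest with the adipocyte markers in that array; each gene was placed beside a list after its values were seen.

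WT replicate 3 was the lowest of the 6 arrays for 22 of the 68 genes (32.4%), against 19.7% of all transcript clusters, and the highest for 12. The 22 include the high-reading carriers Slc1a5, Slc6a8, Slc15a1, Slc38a2 and Slc43a3. Cbl-b-/- replicate 1 was lowest for 1 gene. The medians over the set were 6.75, 6.45 and 6.64 in Cbl-b-/- arrays and 6.77, 6.60 and 6.81 in WT arrays.

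Several of these genes lie side by side, and 11 pairs stood within 100 kb of each other in the RefSeq annotation. Neighbours stood on opposite sides of 0 in several of them. Slc6a18 and Slc6a19 on chromosome 13 stood at 0.12 and -0.30, Slc6a13 and Slc6a12 on chromosome 6 at -0.13 and 0.033, and Slc43a1 and Slc43a3 on chromosome 2 at -0.061 and 0.068. Slc36a3, Slc36a2 and Slc36a1 on chromosome 11 stood at -0.018, 0.040 and 0.15. The opposite-strand genes Slc7a6os and Slc6a19os stood at 0.0048 and 0.035.

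Genes that use, sense or answer to amino acids were read from 4 lists. None of the lists had a gene at the study's thresholds. In the list of arginine and polyamine genes, 19 of 23 had a row of their own, 10 above 0 and 9 below, with a median log2 fold change of 0.016. Arg1 and Nos2, the arginase and the nitric oxide synthase that compete for arginine in macrophages, stood at -0.057 (SE 0.14) and -0.17 (SE 0.10). Nos2 read 5.86, 6.01 and 5.71 in Cbl-b-/- and 6.08, 6.02 and 5.99 in WT skin, with a Cbl-b-/- array inside the WT range. Odc1, which makes the polyamine putrescine from ornithine, stood at -0.018 (SE 0.30). Odc1 has 2 rows, and only the row with the higher mean was used.

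At an unadjusted p under 0.05 by limma 2 genes of that list passed, which is 10.5% of the 19 against 6.55% of all transcript clusters, and 0 passed without Cbl-b-/- replicate 3 or without WT replicate 2. Azin1, the antizyme inhibitor that keeps Odc1 from being degraded, was lower, with 8.29, 8.50 and 8.18 in Cbl-b-/- and 8.66, 8.84 and 8.58 in WT skin. Its groups did not overlap, which held for 2 of the 19 genes (10.5%, against 13.5% of all transcript clusters). Azin1 had a log2 fold change of -0.37 (SE 0.12, adjusted p = 0.733 by limma). Agmat, agmatinase, was higher, with 6.11, 5.98 and 6.06 in Cbl-b-/- and 5.73, 5.80 and 5.91 in WT skin, with a log2 fold change of 0.24 (SE 0.085, adjusted p = 0.749 by limma). Both differences were under 1.5-fold.

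The amino acid response genes, which Atf4 induces, had a median of -0.022 over 21 of 22 genes. Atf4 itself read 8.45, 8.83 and 8.66 in Cbl-b-/- and 8.57, 8.81 and 8.70 in WT skin, with a log2 fold change of -0.045 (SE 0.12). Asns, asparagine synthetase, stood at 0.033 (SE 0.19) and Ddit3 (CHOP) at 0.051 (SE 0.074). Ppp1r15a (GADD34), which reverses the block of translation, passed an unadjusted p under 0.05 by limma, with 7.69, 7.72 and 7.66 in Cbl-b-/- and 7.58, 7.47 and 7.38 in WT skin and a log2 fold change of 0.22 (SE 0.084, adjusted p = 0.749). This is 1 of the 21 genes, or 4.76%, against 6.55% of all transcript clusters. Its groups did not overlap, which held for 2 of the 21 (9.52%, against 13.5% of all transcript clusters). Ppp1r15a no longer passed when any array other than WT replicate 1 was left out.

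The amino acid sensing genes around mTORC1 gave 28 of 28 measured genes with a median of 0.0034. At an unadjusted p under 0.05, 0 passed by limma, against 6.55% of all transcript clusters. By the methods' test 1 passed (Mios, a subunit of GATOR2, lower), which is 3.57% against 6.98%. Mtor read 8.25, 8.17 and 8.11 in Cbl-b-/- and 8.16, 8.15 and 8.19 in WT skin, with a log2 fold change of 0.0089 (SE 0.076). Among 14 carriers of amino acids from other families, 8 stood above 0 and 6 below, with a median of 0.068, and 0 passed an unadjusted p under 0.05 by limma or by the methods' test.

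**Figure D5:**
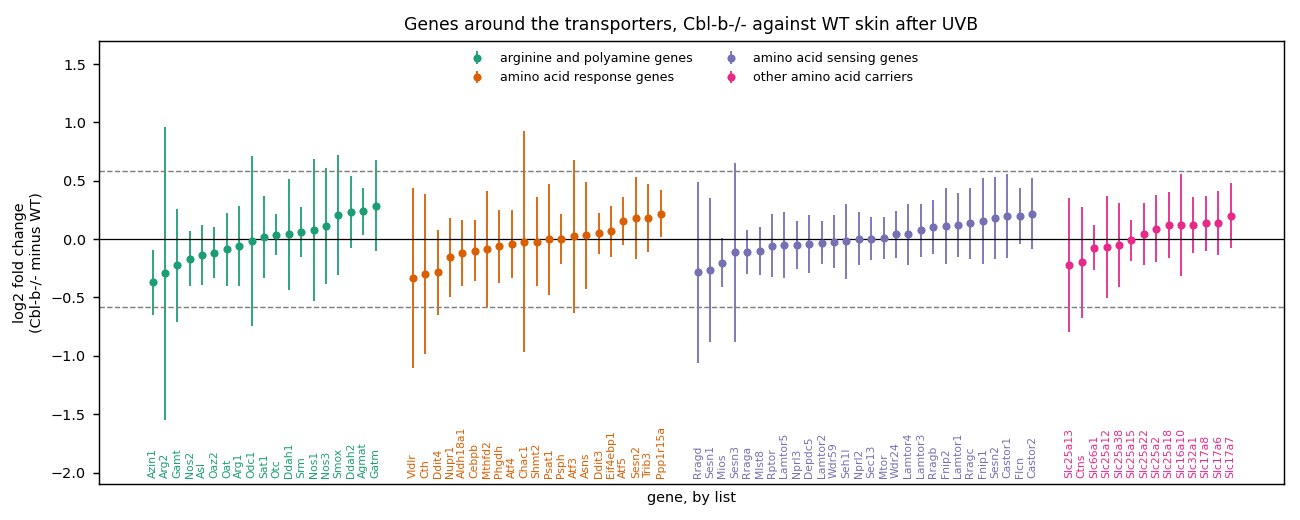
Log2 fold change (Cbl-b-/- minus WT) of the measured genes of the 4 lists, with points for the estimate and vertical lines for the 95% interval from limma; dashed lines mark a 1.5-fold difference. No point lies beyond a dashed line, and Azin1, at -0.37, is the lowest gene of the arginine and polyamine list.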

How the data were processed

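RNA from the irradiated dorsal skin of 3 Cbl-b-/- and 3 WT mice was measured on 6 Affymetrix arrays of the Mouse Gene 1.0 ST type. The deposited values are log2 expression per transcript cluster, which the authors computed by RMA (Expression Console and Partek 6.5 per the submitters' processing notes). RMA equalizes the distribution of all arrays and compresses low values. No per-sample column was left unused. Gene symbols came from the platform annotation: 21789 transcript clusters carry 1 symbol, 1621 several and 12146 none. Genotypes were compared as Cbl-b-/- minus WT with limma 3.58.1 in R 4.3.3 on all 35556 transcript clusters, without a filter or covariate, and p-values were adjusted by Benjamini-Hochberg over all of them. The study's thresholds (p under 0.05, read as unadjusted, and 1.5-fold) were applied. The script was tested on simulated data. The arrays are from separate animals, and their number limits the precision.

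Values in every array were given for genes at the thresholds or at an unadjusted p under 0.05, for Slc7a1, Slc7a2, Slc7a3, Slc3a1 and Slc3a2, and for the highest-mean gene of each family. Other genes shown by array were chosen after their values were seen. The transporter genes and all lists were chosen with earlier results of these data known. Positions, gene names and promoter sequences are from RefSeq, GRCm38.p6, and all 68 genes had a position there. The alternatives were the per-gene one-way test of the methods, a mean-variance trend with robust empirical Bayes, cyclic loess between arrays, a filter at the low-value level, the mean of a gene's rows, the replicate number as a block, and leaving out each array.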

Additional observations from a re-analysis of the deposited data

How the results depend on the processing

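Slc7a2 stayed lower under all 12 alternatives, between -0.69 and -0.56 when single arrays were left out, and missed 1.5-fold only without WT replicate 2 (-0.56). The count of transporter genes lower at the thresholds then ranged from 0 to 1, with 0 without WT replicate 2, and the count of higher ones from 0 to 1, with 1 (Slc7a10) without Cbl-b-/- replicate 2. By the methods' test the counts were 0 higher and 1 lower, as in limma, and the 4 related lists kept 0 genes at the thresholds in every alternative. Over all transcript clusters 434 met the thresholds in limma, 267 by the methods' test and 232 of those above the low-value level, and from 428 to 790 did so when single arrays were left out, with 790 without Cbl-b-/- replicate 2. The median log2 fold change of the transporter genes ran from 0.022 to 0.069. The cause of these shifts was not tested.

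Samples of equal replicate number correlated in their deviations at 0.23, 0.092 and 0.25. Each Cbl-b-/- array correlated best with the WT array of its own number, by a narrow margin for replicate 1 (0.233, against 0.232 with WT replicate 2). From the other side, WT replicate 2 correlated best with Cbl-b-/- replicate 1. These values do not settle whether the mice were paired, and the main comparison did not pair them. With the replicate number as a block 453 transcript clusters met the thresholds, and Slc7a2 (-0.63, unadjusted p = 0.00151 by limma) remained the only transporter gene among them. Among the related genes, Ppp1r15a and Agmat no longer passed an unadjusted p under 0.05 by limma with this block, while Azin1 did.

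Of the transporter genes 34 changed sign under some alternative and 34 under none, and none of those that changed was past the thresholds. With cyclic loess between arrays Slc1a4 turned to -0.026, Slc6a3 to -0.017, Slc6a19os to -0.027, Slc6a21 to -0.041 and Slc7a6os to -0.0030, and with the mean of its rows Slc38a9 turned to 0.0034. When single arrays were left out, log2 fold changes on both sides of 0 were found as follows. In the Slc1 and Slc3 families Slc1a1 ran from -0.0093 to 0.26, Slc1a3 from -0.38 to 0.16, Slc1a4 from -0.049 to 0.064, Slc1a5 from -0.16 to 0.22 and Slc3a2 from -0.13 to 0.048. In the Slc6 family Slc6a2 ran from -0.12 to 0.068, Slc6a3 from -0.025 to 0.10, Slc6a6 from -0.039 to 0.18, Slc6a12 from -0.092 to 0.19, Slc6a13 from -0.39 to 0.37, Slc6a14 from -0.20 to 0.14, Slc6a17 from -0.22 to 0.16, Slc6a19os from -0.020 to 0.099, Slc6a20a from -0.29 to 0.21 and Slc6a21 from -0.077 to 0.13. In the Slc7 family Slc7a5 ran from -0.088 to 0.089, Slc7a6os from -0.081 to 0.051, Slc7a7 from -0.26 to 0.054, Slc7a8 from -0.55 to 0.27, Slc7a9 from -0.016 to 0.12 and Slc7a11 from -0.67 to 0.46. In the Slc15 and Slc36 families Slc15a1 ran from -0.22 to 0.060, Slc15a3 from -0.27 to 0.21, Slc15a4 from -0.048 to 0.070, Slc36a2 from -0.088 to 0.23 and Slc36a3 from -0.063 to 0.049. In the Slc38 and Slc43 families Slc38a1 ran from -0.16 to 0.10, Slc38a3 from -0.41 to 0.0034, Slc38a4 from -0.32 to 0.014, Slc38a7 from -0.025 to 0.17, Slc38a10 from -0.027 to 0.081, Slc43a1 from -0.28 to 0.12 and Slc43a3 from -0.12 to 0.30. Among the related genes Arg1 ran from -0.21 to 0.049, Asns from -0.11 to 0.19, Atf4 from -0.14 to 0.053, Mtor from -0.028 to 0.043 and Odc1 from -0.36 to 0.26.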
